A study of Mus musculus with 39 samples.

Results

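Endoglin and 9 transmembrane receptors of the TGF-beta and BMP families were followed in brain endothelial cells after endothelial loss of Smad4, Alk1 (gene symbol Acvrl1) or Eng. The members were chosen by gene symbol, and all 10 were found among the 24946 genes present in every table. They are the co-receptors Eng (endoglin) and Tgfbr3 (betaglycan), the type I receptors Acvrl1, Acvr1, Bmpr1a and Tgfbr1, and the type II receptors Bmpr2, Acvr2a, Acvr2b and Tgfbr2. Each had a value of at least 20 in enough libraries to be tested in every table.

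Ligands of this family bind a complex of type I and type II serine/threonine kinase receptors, in which the type II receptor phosphorylates the type I receptor, which in turn phosphorylates SMAD proteins that enter the nucleus together with SMAD4. In endothelium, BMP9 and BMP10 signal chiefly through ALK1 with BMPR2 or an activin type II receptor, and endoglin presents the ligand. TGF-beta ligands use TGFBR2 with TGFBR1, and betaglycan binds TGF-beta2 in particular. Heterozygous loss of ENG, ACVRL1 or SMAD4 in humans causes hereditary haemorrhagic telangiectasia, a disease of direct connections between arteries and veins, and loss of BMPR2 is a cause of pulmonary arterial hypertension.

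RNA was sequenced from endothelial cells of whole brains of C57BL/6 pups, isolated on beads that carried an antibody to PECAM. Mutants had the genotype Smad4f/f; Cdh5-CreERT2, Alk1f/f; Cdh5-CreERT2 or Engf/f; Cdh5-CreERT2, in which Cre is driven by an endothelial promoter and needs tamoxifen, and wild types had the same floxed alleles without Cre. Per the labels' protocols tamoxifen went to all pups, at 300 µg on postnatal days 1 to 3 for Smad4 and Eng and at 100 µg on day 4 for Alk1. Cells were taken on day 7, or on day 6 for Alk1, so that the interval after tamoxifen differed between the deletions. In every contrast of Alk1 with another deletion, the deleted gene, the age and the tamoxifen dose and days cannot be told apart. A further set of Smad4 pups received 30 µg of control IgG (3 wild types, 3 mutants) or of LC10, an inhibitor of angiopoietin-2 (3 mutants), on days 2 and 4. The 3 cohorts without antibody held 5 mutants and 5 wild types each, which gives 39 libraries in 9 groups. The labels do not say whether libraries of a group came from separate pups, so p-values measure the spread between these libraries, which may be technical. The floxed part of Acvrl1 is not named in them.

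Values are the deposited normalized expression values, which have no unit. How the tables were scaled is not given, and library sums differed between them (31.51M to 36.03M in the Smad4 and 40.28M to 42.74M in the Eng table), so mutants were compared with wild types within a table only. Sums per library ran from 25.44M to 42.74M and the inferred depth from 11.1M to 30.8M fragments. Effects are log2 fold changes of mutant over wild type on the scale log2(value + 2), given ± SE from limma, and a gene was called at a Benjamini-Hochberg adjusted p under 0.05 over all genes tested. Means are given ± SD, with n = 5 per group where no antibody was given and n = 3 per group otherwise. The targeted gene Smad4 stood at 1676 to 1916 in its 5 mutants and at 5258 to 5903 in the wild types, and in the IgG table at 1817 to 3030 against 5625 to 5975. Division of each library by its total lowered the share of calls that were higher in mutants from 52.1 to 37.2% in the Smad4 and from 52.7 to 41.1% in the Alk1 cohort, while the median of all genes moved by less than 0.1. Codes of unknown meaning stand in some column names, on mutants and wild types alike. L146 marks 2 libraries of each Smad4 group, L219 marks 2 of each Alk1 group, and every Eng library has L210 or L216. Values within a code are given where they bear on a result.

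All 14 endothelial markers searched were tested in every cohort, and their summed value lay at 488246 to 607376 in Smad4 mutants and 479700 to 580256 in the wild types. Of these markers 3 rose and 3 fell in the Smad4 cohort, 4 rose and 3 fell in the Alk1 cohort (sums of 473079 to 531655 in mutants and 503824 to 558272 in wild types), and 1 rose and 6 fell in the Eng cohort (612984 to 651562 against 635665 to 715239), with median log2 fold changes of 0.02, -0.04 and -0.12. Markers of other brain cells were present too, with no listed marker at 0 in all libraries of a table except 1 erythroid marker in the IgG table. Of 10 pericyte markers, 6 fell in the Smad4 cohort (sums of 17084 to 52836 in mutants and 59232 to 84165 in wild types), 4 fell in the IgG table (39841 to 76782 against 79649 to 110396), 3 fell in the Alk1 cohort (62966 to 119812 against 92385 to 116977), and none was called in the Eng cohort (74781 to 134194 against 79207 to 129572). Of the smooth muscle markers tested, 4 of 5 fell in the Smad4 cohort (758 to 2847 against 3539 to 4502) and 4 of 5 in the Alk1 cohort (1695 to 3443 against 4129 to 4898), while 1 of 5 fell in the IgG table (2048 to 3694 against 3470 to 5083). In the Eng cohort 1 of 6 rose and 0 fell (4938 to 6235 against 3790 to 6891). Neuronal markers fell in the Smad4 cohort as well, 8 of 12 tested, with sums of 2987 to 6970 against 5692 to 9625. Erythroid markers fell in the Smad4 (3 of 4 tested), Alk1 (4 of 4) and Eng cohorts (3 of 5), and 0 of 4 in the IgG table. Of 11 microglia and macrophage markers, 5 fell in the IgG table, 2 rose in the Alk1 cohort and 0 were called in the other cohorts. Fibroblast and oligodendrocyte lineage markers fell in the Smad4 cohort (3 of 7 and 4 of 8) and the IgG table (3 of 7 and 3 of 8). In the Eng cohort 0 of either were called, and in the Alk1 cohort 1 of 7 and 0 of 7 fell. In these bulk samples, fewer cells of a type and less RNA per cell cannot be told apart. Pericyte sums of mutants and wild types did not overlap in the Smad4 cohort and the IgG table. Fits there with pericyte and smooth muscle markers as a covariate therefore cannot separate genotype from marker level, and a call lost in them has no assigned cause.

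The upstream sequences of 3 receptors are shown because their mRNA shifted with loss of Smad4 itself or differed between loss of Smad4 and loss of Alk1, and because a window ahead of their annotated exons was at hand. Capitals mark CAGAC or its reverse complement GTCTG, the short core that SMAD3 and SMAD4 bind in vitro. The windows come from RefSeq (GRCm38.p6) and are written 5′ to 3′ on the strand of the gene, Eng at chr2:32646345-32646594 on the plus strand, Tgfbr2 at chr9:116175364-116175613 on the minus strand, and Acvr2b at chr9:119401928-119402117 on the plus strand, where exons of the annotation begin after 190 bases.
Eng: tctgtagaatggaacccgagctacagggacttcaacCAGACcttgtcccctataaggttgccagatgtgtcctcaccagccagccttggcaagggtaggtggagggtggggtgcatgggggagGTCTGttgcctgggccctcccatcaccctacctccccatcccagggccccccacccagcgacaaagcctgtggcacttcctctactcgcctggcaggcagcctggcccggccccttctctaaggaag
Tgfbr2: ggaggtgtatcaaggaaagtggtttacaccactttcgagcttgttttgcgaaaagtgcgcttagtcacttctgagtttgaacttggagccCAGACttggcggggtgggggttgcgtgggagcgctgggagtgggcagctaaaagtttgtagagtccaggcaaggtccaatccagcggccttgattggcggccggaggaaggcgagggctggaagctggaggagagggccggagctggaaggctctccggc
Acvr2b: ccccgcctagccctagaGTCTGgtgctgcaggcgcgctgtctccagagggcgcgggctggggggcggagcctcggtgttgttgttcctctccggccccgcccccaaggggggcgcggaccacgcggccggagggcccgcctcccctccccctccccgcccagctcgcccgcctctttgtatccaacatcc
Eng held 2 matches, Tgfbr2 held 1 and Acvr2b held 1, searched on both strands. Of 32851 promoters in the RefSeq table, 42.2% held at least 1 match in the same 250 bases and 11.5% held 2 or more, and 34.6% held 1 in the first 190 bases. GGCGCC, a GC-rich motif associated with BMP SMADs, had no match in these windows and was present in 9.6% of all promoters in 250 bases and in 6.6% in the first 190. Among windows not shown, Acvr2a held 1 match of CAGAC or GTCTG in 250 bases and Bmpr1a held 0 in 109 bases. Tgfbr1 held 0 at chr4:47352972-47353221 and 1 at chr4:47385966-47386215. Neither Acvr2a nor Tgfbr1 was called in the main fit of any table. A match is a run of letters and no evidence of binding.

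Per kilobase of exon, the 10 receptors kept 1 order in the wild types of all 4 tables. In the Smad4 wild types Eng came first with 12250 ± 786 per kb, followed by Acvrl1 with 3966 ± 209 and Tgfbr2 with 2964 ± 242. Bmpr2 stood at 999 ± 71.7 per kb, Tgfbr3 at 677 ± 142 and Acvr1 at 538.1 ± 44.5. Tgfbr1 (367.1 ± 19.7), Acvr2b (328.9 ± 25.9), Acvr2a (275.6 ± 33.3) and Bmpr1a (122.9 ± 28.5) were lowest on the same scale. The endoglin level was thus the highest of the group and the BMP type I receptor Bmpr1a the lowest. Neighbours whose libraries overlapped in the Smad4 wild types were Tgfbr3 with Acvr1, Tgfbr1 with Acvr2b, and Acvr2b with Acvr2a. In the Alk1 wild types Tgfbr3 overlapped Acvr1 and Acvr2b overlapped Acvr2a, and no neighbours overlapped in the Eng and IgG wild types. With the length of the longest coding transcript in place of all exons, Acvr1 stood above Tgfbr3 in all 4 groups.

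**Figure D1:**
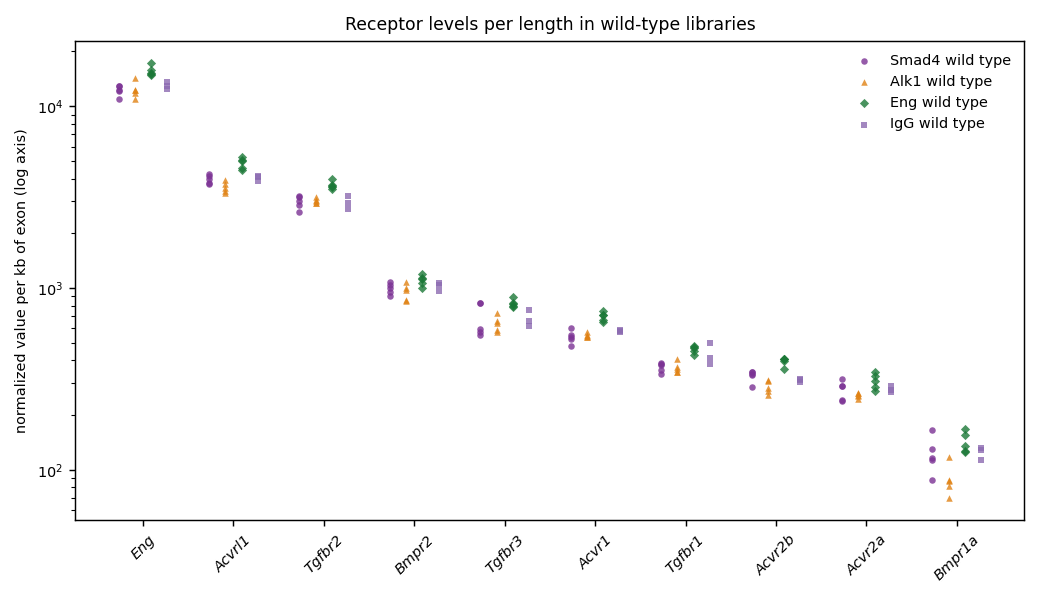
Normalized value per kb of exon (log axis) of each receptor in every wild-type library of the 4 tables, each point 1 library. Eng lies between 11000 and 17390 per kb and Bmpr1a between 69.72 and 167.2 per kb.

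The first question was how many of the receptors responded to each deletion. Loss of Smad4 changed 4 of the 10, raising Eng and lowering Tgfbr3, Acvr2b and Bmpr2, where 33% of the 14012 genes tested were called in either direction. In the IgG-treated Smad4 pups 5 were called, with Eng higher and Tgfbr3, Bmpr2, Bmpr1a and Acvr1 lower, against 17.8% of 13939 genes. Loss of Alk1 lowered Acvr1 and Eng, 2 of 10 against 33.2% of 13635 genes. Loss of Eng lowered Tgfbr3, Acvr2b and Tgfbr2 beside Eng itself, 4 of 10 against 21.5% of 14350 genes. With 10 genes, 1 of them deleted in its own cohort, these counts say nothing particular about the receptors as a set.

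By direction, 17.2% of genes were called higher and 15.8% lower in the Smad4 cohort, 17.5% and 15.7% in the Alk1 cohort, 12.4% and 9.08% in the Eng cohort, and 9.67% and 8.12% in the IgG table. Mutant and wild-type libraries did not overlap for 3 receptors in the Smad4 cohort (22.8% of all genes), 1 in the Alk1 cohort (24.5%), 4 in the Eng cohort (16.5%) and 8 in the IgG table (41%, with 3 libraries a group). The median log2 fold change of the 10 receptors was -0.05 in the Smad4, -0.18 in the Alk1, -0.15 in the Eng and -0.20 in the IgG comparison, beside a median over all genes between -0.01 and 0.00.

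**Figure D2:**
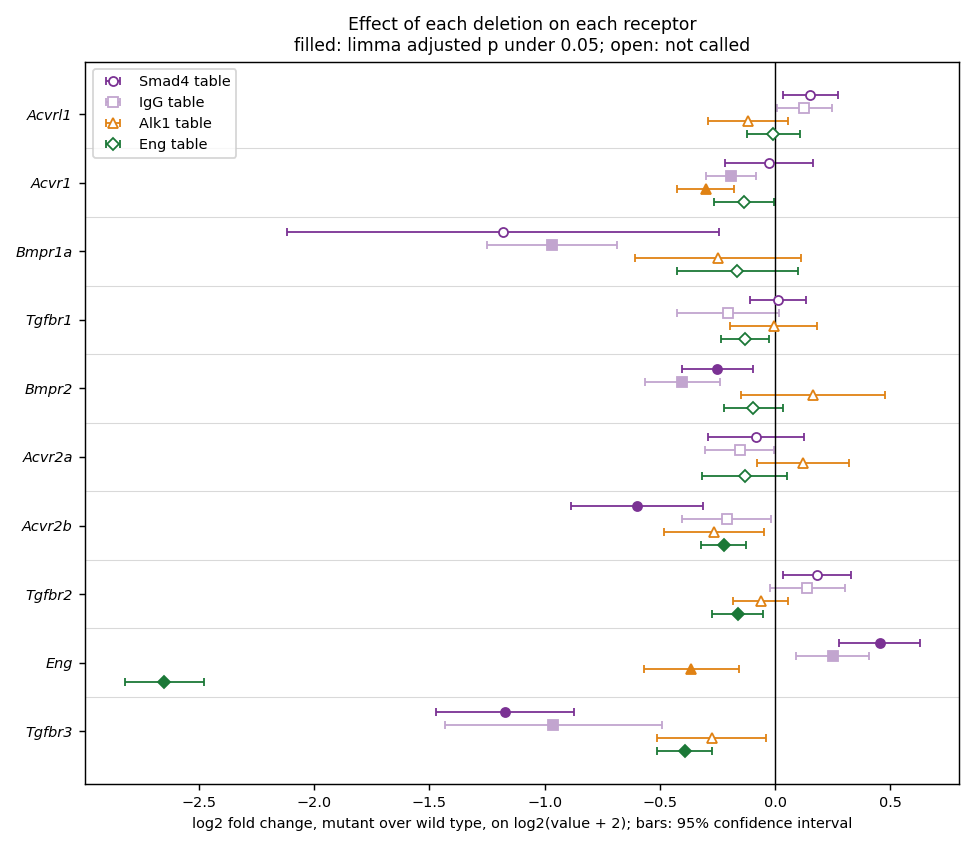
Log2 fold change of mutant over wild type for each receptor in the 4 tables, with 95% confidence intervals. Filled symbols were called by limma, and the Eng deletion itself is the point at -2.65, with most other effects between -0.6 and 0.5.

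Eng encodes endoglin, the co-receptor that binds BMP9 and is concentrated on endothelium (mm10 chromosome 2, 32646595 to 32682669). In the Smad4 cohort the 5 wild types held 44586, 48988, 49684, 52285 and 52388, and the 5 mutants 60485, 64183, 74521, 66138 and 74707. Every mutant lay above every wild type. Mutants averaged 68007 ± 6364 and wild types 49586 ± 3182, a log2 fold change of 0.45 ± 0.08 (limma adjusted p = 0.00167). The log2 difference was 0.47 among libraries without a code and 0.43 within code L146, with no overlap in either. With pericyte and smooth muscle markers as a covariate it was 0.34 (limma adjusted p = 0.0615).

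The IgG table showed the same direction. Its wild types held 55051, 51977 and 50263 for Eng and its mutants 63318, 59770 and 63903, again without overlap, with a log2 fold change of 0.25 ± 0.07 (limma adjusted p = 0.0441). That call was lost when any 1 of the 6 libraries was left out (adjusted p = 0.0548 to 0.133, log2 fold change 0.22 to 0.29), without the filter on low values (0.0535), under quantile normalization (0.0571), without the intensity trend (0.0652), with the replicate block (0.0625) and with either marker covariate (0.36 and 0.235).

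After loss of Alk1, which encodes the signalling partner of endoglin, Eng was lower. Alk1 wild types held 44542, 58098, 49444, 48122 and 49526, and the mutants 38282, 46981, 36124, 38083 and 35033. Of the mutants 4 lay below every wild type, and the mutant at 46981 lay above the lowest wild type. The log2 fold change was -0.36 ± 0.10 (limma adjusted p = 0.0116). Restricted to uncoded libraries, 3 a group, it was -0.33 and not called (adjusted p = 0.166), and it was -0.42 within code L219, where the 2 mutants lay below both wild types. The call was lost as well with pericyte and smooth muscle markers as a covariate, at a log2 fold change of -0.41 (adjusted p = 0.128).

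In the Eng cohort, where Eng was the deleted gene, wild types held 60151 to 70402 and mutants 11508, 9102, 10664, 8613 and 10871, a log2 fold change of -2.65 ± 0.08 (limma adjusted p = 1.14e-09). The opposite shifts after loss of Smad4 and loss of Alk1 were compared in 1 contrast, in which deleted gene, age and tamoxifen schedule cannot be told apart. The effect on Eng differed by 0.82 ± 0.12 on the log2 scale (95% interval 0.57 to 1.07, limma adjusted p = 2.27e-05), in a contrast that called 4 of the 10 receptors and 17.1% of 13500 genes.

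Tgfbr3 encodes betaglycan, the co-receptor that presents TGF-beta2 and inhibins (chromosome 5, 107106570 to 107289629). Its value fell furthest of the 10 receptors among those called in the Smad4 cohort. Wild types held 3914, 3603, 3751, 5448 and 5439, the last 2 with code L146, and mutants 1829, 1678, 1868, 1988 and 2369. All mutants lay below all wild types. The means were 1946 ± 261 and 4431 ± 931, a log2 fold change of -1.17 ± 0.14 (0.444-fold, limma adjusted p = 0.000112). The log2 difference was -1.07 without a code and -1.33 within code L146. Over 22 other settings the log2 fold change stayed between -1.44 and -1.07, and the largest adjusted p was 0.000487.

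Under IgG Tgfbr3 stood at 4971, 4302 and 4024 in wild types and 3028, 2361 and 1625 in mutants, without overlap, and fell by 0.96 ± 0.20 on the log2 scale (limma adjusted p = 0.0215). The call was lost without IgG wild type 1 (adjusted p = 0.0597), wild type 2 (0.0654) or mutant 2 (0.0761), without the intensity trend (0.0612), and with glial and neuronal (0.0783) or pericyte and smooth muscle markers (0.294, log2 fold change -0.29) as a covariate.

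Loss of Eng also lowered Tgfbr3. Eng wild types held 5371, 5178, 5877, 5392 and 5239 and the mutants 4517, 4353, 3761, 3815 and 4194. The groups did not overlap, and the log2 fold change was -0.39 ± 0.06 (0.762-fold, limma adjusted p = 0.000399). Over 22 other settings it lay between -0.43 and -0.36, with a largest adjusted p of 0.0213. The 14 endothelial markers had a median of -0.12 in the same cohort, and their part in the result was not tested. After loss of Alk1 the values were 4774, 3871, 3734, 4287 and 4183 in wild types and 3190, 3663, 4423, 3147 and 2927 in mutants, where 1 mutant exceeded 4 of the 5 wild types. That log2 difference of -0.28 ± 0.11 was not called (limma adjusted p = 0.0704), and it was called without the mutant at 4423 (-0.37, adjusted p = 0.00753). Division by library totals also gave a call (-0.35, adjusted p = 0.0118), as did quantile normalization (-0.38, adjusted p = 0.00691) and pericyte and smooth muscle markers as a covariate (-0.54, adjusted p = 0.0388). It was -0.14 in uncoded libraries, where the groups overlapped (adjusted p = 0.538), and -0.48 within L219, where they did not.

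The effect on Tgfbr3 was more negative after loss of Smad4 than after loss of Alk1, by -0.90 ± 0.16 on the log2 scale (95% interval -1.23 to -0.57, limma adjusted p = 0.000231), and than after loss of Eng, by -0.78 ± 0.16 (limma adjusted p = 0.00204). The contrast of Smad4 with Eng called 3 of the 10 receptors and 8.65% of 13500 genes. Between loss of Alk1 and loss of Eng the effect on Tgfbr3 differed by 0.12, with a 95% interval of -0.21 to 0.45.

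**Figure D3:**
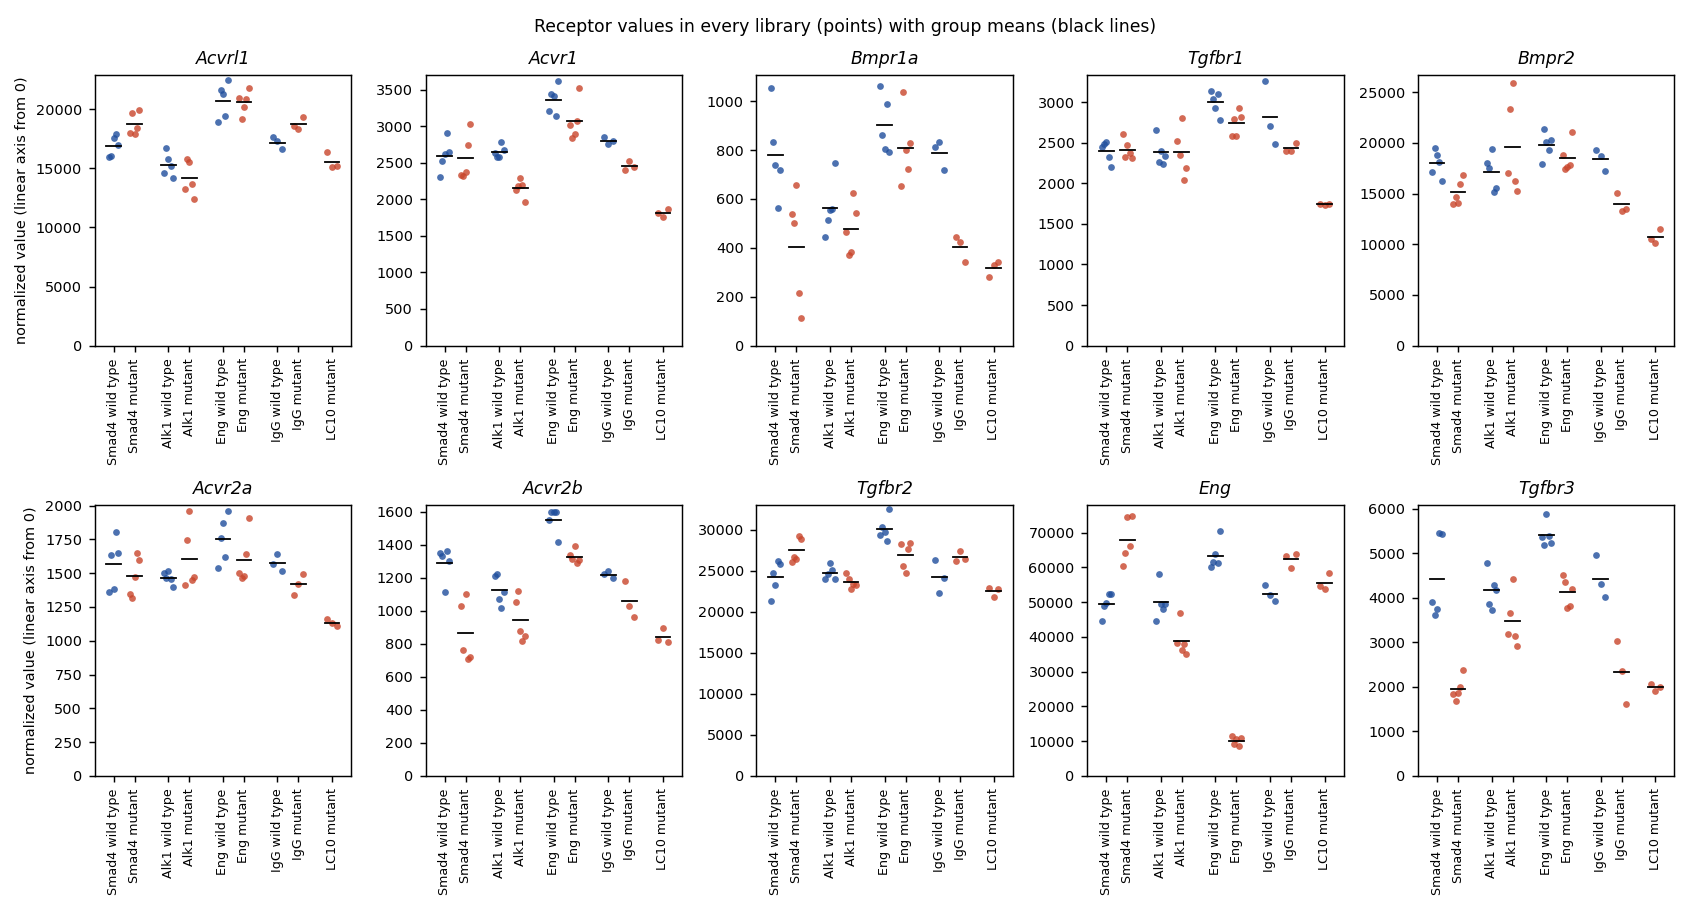
Normalized value of each receptor in every library of the 9 groups (linear axis from 0), with group means as black lines, wild types in blue and mutants in red. For Tgfbr3 the Smad4 mutants lie between 1678 and 2369, below all their wild types at 3603 to 5448. LC10 values come from a table of their own.

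Acvrl1 encodes ALK1, the type I receptor for BMP9 and BMP10 in endothelium (chromosome 15, 101128522 to 101145336). In the Alk1 cohort its whole-gene value was 14617, 16756, 15828, 15197 and 14197 in wild types and 13266, 15809, 15587, 13658 and 12441 in mutants. The groups overlapped, and the log2 difference of -0.12 ± 0.08 was not called (limma adjusted p = 0.279). It was -0.19 once libraries were divided by their totals (adjusted p = 0.0304) and -0.25 with quantile normalization (adjusted p = 0.00828), and both were called. With the floxed part unknown, the whole-gene value is no check of the Alk1 genotype.

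In the other deletions Acvrl1 stayed uncalled. It stood at 15939, 16092, 17565, 17964 and 17018 in Smad4 wild types and 18022, 19711, 17902, 18448 and 19938 in their mutants, where a single mutant value, 17902, lay below the highest wild type. The log2 difference was 0.15 ± 0.05 (limma adjusted p = 0.0513). It was 0.17 without a code and 0.13 within code L146, without overlap in either. With the code as a term it was called (adjusted p = 0.0246), as it was without Smad4 wild type 4 or Smad4 mutant 1 or 3 (adjusted p = 0.033 to 0.0499). Other settings took most of it away: it was 0.007 under quantile normalization (adjusted p = 0.934), 0.073 by library totals (0.258), 0.068 with glial and neuronal markers (0.508) and 0.091 with pericyte and smooth muscle markers as a covariate (0.515). In the IgG table, wild types at 17641, 17295 and 16625 lay below mutants at 18581, 18346 and 19379, with a log2 difference of 0.13 ± 0.05 that was not called (limma adjusted p = 0.117) and was 0.030 under quantile normalization. In the Eng cohort the difference was -0.01 ± 0.05 (95% interval -0.12 to 0.11), with 18916 to 22461 in wild types and 19165 to 21838 in mutants.

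The effect on Acvrl1 differed between loss of Smad4 and loss of Alk1 by 0.27 ± 0.09 on the log2 scale (limma adjusted p = 0.0356). Alk1 is the deleted gene in 1 arm of that contrast. The call was lost with glial and neuronal markers as a covariate (0.20, adjusted p = 0.0939) and without any 1 of 9 libraries, namely Alk1 wild type 2 or 3, Alk1 mutant 1, 4 or 5, Smad4 wild type 1 or 2, or Smad4 mutant 2 or 5, with adjusted p up to 0.0756.

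Acvr1 encodes ALK2, a type I receptor that also binds BMPs (chromosome 2, 58388644 to 58567157). It was the receptor with separate groups after loss of Alk1. Wild types held 2628, 2584, 2585, 2782 and 2673 and mutants 2125, 2183, 2285, 2201 and 1967, and it fell by 0.30 ± 0.06 on the log2 scale (0.811-fold, limma adjusted p = 0.00175). The log2 difference was -0.24 in uncoded libraries (adjusted p = 0.0865, not called) and -0.39 within code L219, without overlap in either. Under IgG it fell from 2802 ± 48.4 to 2457 ± 63.0 (-0.19 ± 0.05, limma adjusted p = 0.0331), a call lost without any 1 of the 6 libraries (adjusted p = 0.0523 to 0.0886), with the replicate block (0.0588), without the intensity trend (0.0773) and with either marker covariate (0.144 and 0.29). In the untreated Smad4 cohort wild types lay between 2309 and 2900 and mutants between 2316 and 3036, and the log2 difference was -0.03 with a 95% interval of -0.22 to 0.17. In the Eng cohort it was -0.13 ± 0.06 (limma adjusted p = 0.134), and without Eng mutant 5, the highest mutant at 3520, it was -0.18 (adjusted p = 0.0155). The Eng difference was also called with the code as a term (adjusted p = 0.0292) and within L210 (-0.16, adjusted p = 0.0249). The effects of Smad4 and Alk1 loss on Acvr1 differed by 0.28 ± 0.10, which was not called (limma adjusted p = 0.0524). The difference was called by totals (0.27, adjusted p = 0.0144), by quantiles (0.28, adjusted p = 0.0154) and without Alk1 mutant 3, Smad4 wild type 4 or Smad4 mutant 1, 2 or 3 (adjusted p = 0.0276 to 0.0447), and it was 0.19 with glial and neuronal markers as a covariate (adjusted p = 0.14).

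Bmpr1a encodes ALK3, the type I receptor used by BMP2 and BMP4 (chromosome 14, 34410734 to 34503341). Its Smad4 wild types held 1054, 832, 738, 562 and 718 and the mutants 537, 500, 659, 217 and 111. The mutants with code L146 were the lowest libraries, at 217 and 111, and the mutant at 659 exceeded the lowest wild type. The log2 difference was -1.18 ± 0.43 and was not called (limma adjusted p = 0.0535), while with the code as a term it was called (adjusted p = 0.00533). Quantile normalization (-1.05, adjusted p = 0.043), a joint fit of the 30 libraries without antibody (0.00244) and leaving out Smad4 mutant 1 (-1.35, 0.0417) or 3 (-1.42, 0.0227) gave a call as well, and without mutant 5 it was -0.79 (0.0715). Within the libraries without a code it was -0.62 and called (limma adjusted p = 0.0273), and within L146 it was -2.02, with no overlap in either.

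In the IgG table Bmpr1a fell from 812, 833 and 717 in wild types to 444, 424 and 341 in mutants, by 0.97 ± 0.12 on the log2 scale (limma adjusted p = 0.00532). Of the pericyte markers 6 of 10 fell in the Smad4 cohort and 4 of 10 in the IgG table, and of the smooth muscle markers 4 of 5 and 1 of 5, as given above. With these markers as a covariate the log2 difference of Bmpr1a was 0.15 in the Smad4 cohort (limma adjusted p = 0.789) and -0.68 in the IgG table (adjusted p = 0.125). Because pericyte sums did not overlap between genotypes in either table, marker level and genotype cannot be told apart in these fits. With glial and neuronal markers it was 0.02 in the Smad4 cohort (limma adjusted p = 0.963), while in the IgG table Bmpr1a stayed lower and called. After loss of Alk1 the difference was -0.25 (443 to 746 in wild types, 372 to 623 in mutants) and after loss of Eng -0.16 (792 to 1062 and 652 to 1036), neither called (limma adjusted p = 0.28 and 0.389).

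Tgfbr1 encodes ALK5, the type I receptor for TGF-beta (chromosome 4, 47353222 to 47414931), and was not called in any table in the fits without covariates over all libraries. Its log2 difference was 0.01 in the Smad4 cohort (95% interval -0.11 to 0.13), -0.01 in the Alk1 cohort (-0.20 to 0.18), -0.13 in the Eng cohort (-0.23 to -0.03, limma adjusted p = 0.0691) and -0.20 in the IgG table (-0.43 to 0.02). Values lay between 2044 and 3268 in all libraries of these tables. With glial and neuronal markers as a covariate the IgG difference was -0.46 and called (limma adjusted p = 0.0288), with pericyte and smooth muscle markers it was -0.086 (0.825), and without IgG wild type 1 it was -0.094 (0.34). The Eng difference was called within code L210 (-0.17, adjusted p = 0.0313), without Eng wild type 5 (-0.16, 0.0317) and without Eng mutant 4 (-0.15, 0.045).

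Bmpr2 encodes the type II receptor that pairs with ALK1 for BMP9 (chromosome 1, 59763400 to 59879014). Smad4 wild types held 17141, 19529, 18777, 18096 and 16280 and mutants 13974, 14608, 14103, 15982 and 16856. Of the mutants 4 lay below every wild type. Bmpr2 fell by 0.25 ± 0.07 on the log2 scale (0.84-fold, limma adjusted p = 0.0196). The log2 difference was -0.38 without a code and -0.06 within L146, where the groups overlapped. The call was lost in the joint fit of 30 libraries (adjusted p = 0.0583) and without Smad4 wild type 2 (0.0504). The fall was larger under quantile normalization (-0.402, limma adjusted p = 0.000185) and with glial and neuronal markers as a covariate (-0.397, adjusted p = 0.00246).

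The IgG table gave a log2 fold change of -0.40 ± 0.07 for Bmpr2 (limma adjusted p = 0.0126), with 19281, 18746 and 17260 in wild types and 15089, 13280 and 13494 in mutants. That call was lost without IgG mutant 2 (adjusted p = 0.0648) and with pericyte and smooth muscle markers as a covariate (-0.24, adjusted p = 0.238). After loss of Alk1 the wild types lay at 18059, 17472, 19364, 15181 and 15497 and the mutants at 17047, 23374, 25950, 16208 and 15208. Among those mutants 2 exceeded every wild type and the other 3 lay within their range, and the difference of 0.17 ± 0.14 was not called (limma adjusted p = 0.41). After loss of Eng it was -0.09 ± 0.06 (adjusted p = 0.303). The effects of Smad4 and Alk1 loss differed by -0.42 ± 0.15, not called (limma adjusted p = 0.0558), and the difference was called with libraries divided by their totals (-0.42, adjusted p = 0.0153), quantile normalized (-0.43, adjusted p = 0.00901) and with glial and neuronal markers as a covariate (-0.56, adjusted p = 0.00298). It was called too without Alk1 wild type 3, Alk1 mutant 1, 4 or 5, Smad4 wild type 5 or Smad4 mutant 5 (adjusted p = 0.0168 to 0.0487).

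Acvr2b encodes an activin type II receptor that can also serve BMP9 (chromosome 9, 119402118 to 119434995). Its Smad4 wild types held 1354, 1330, 1115, 1361 and 1301 and mutants 1030, 765, 1102, 711 and 717. The groups did not overlap, with 1102 and 1115 as the nearest values. Acvr2b fell by 0.60 ± 0.13 on the log2 scale (0.66-fold, limma adjusted p = 0.00579). The difference was -0.40 in uncoded libraries (adjusted p = 0.0887) and -0.90 within L146. With glial and neuronal markers as a covariate it was -0.30 (adjusted p = 0.112) and with pericyte and smooth muscle markers -0.35 (adjusted p = 0.189), and in none of these 3 fits was it called.

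After loss of Eng, Acvr2b stood at 1551, 1599, 1598, 1597 and 1416 in wild types and 1336, 1314, 1393, 1290 and 1308 in mutants. The mutants were all lower, and the fall was 0.22 ± 0.04 on the log2 scale (0.857-fold, limma adjusted p = 0.00407). In a joint fit of 30 libraries, which pools the spread of all 3 cohorts, it was not called (adjusted p = 0.178). After loss of Alk1 the values were 1016 to 1221 in wild types and 818 to 1119 in mutants (-0.27 ± 0.10, limma adjusted p = 0.0581), and the difference was called in 7 other fits, with the library code as a term (adjusted p = 0.0247), by totals (0.0276), by quantiles (0.0364), with glial and neuronal markers (0.0154), in the joint fit (0.0376) and without Alk1 mutant 1 (0.0358) or 2 (0.0195). It was -0.21 in uncoded libraries (adjusted p = 0.284) and -0.35 within L219. Mutants given IgG, at 1181, 1028 and 963, lay below wild types at 1222, 1239 and 1198, with a difference of -0.21 ± 0.08 that was not called (adjusted p = 0.112). Without IgG mutant 1 it was -0.29 and called (adjusted p = 0.0257), and with pericyte and smooth muscle markers as a covariate it was -0.018. The contrasts between deletions called none of the differences for Acvr2b over all libraries. Without Smad4 mutant 1 or 3 the effects of Smad4 and Alk1 loss differed (adjusted p = 0.0483 and 0.023), as did those of Smad4 and Eng loss (0.0407 and 0.019).

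Acvr2a, the other activin type II receptor (chromosome 2, 48814109 to 48903269), was not called in any table. Its log2 difference was -0.08 in the Smad4 cohort (95% interval -0.29 to 0.12), 0.12 in the Alk1 cohort (-0.08 to 0.32), -0.13 in the Eng cohort (-0.32 to 0.05) and -0.15 in the IgG table (-0.30 to -0.0036), with values of 1316 to 1964 in all libraries of these tables.

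Tgfbr2 encodes the type II receptor for TGF-beta (chromosome 9, 116084293 to 116175360). After loss of Eng it fell. Wild types held 29317, 30332, 29718, 28567 and 32459 and mutants 28278, 25504, 24690, 27591 and 28402, without overlap, and the log2 fold change was -0.16 ± 0.05 (limma adjusted p = 0.0373). Tgfbr2 was not called when Eng wild type 1, 2, 3 or 5 or mutant 2, 3 or 4 was left out (adjusted p = 0.0507 to 0.0886), without the intensity trend (0.0626) and with pericyte and smooth muscle markers as a covariate (0.0808). The endothelial markers of that cohort had a median of -0.12, and their part in the result was not tested.

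In the Smad4 cohort Tgfbr2 stood at 21328, 24735, 23300, 26136 and 25814 in wild types and 26096, 26646, 26462, 29198 and 28877 in mutants. A single mutant, at 26096, lay below the highest wild type. The difference of 0.18 ± 0.07 was not called (limma adjusted p = 0.0588), with 0.19 among libraries without a code and 0.16 within L146. It was called with the library code as a term (adjusted p = 0.00934), in the joint fit of 30 libraries (0.00857) and without Smad4 wild type 4 (0.0493). It was smaller by library totals (0.10, adjusted p = 0.145), under quantile normalization (0.069, adjusted p = 0.314) and with glial and neuronal (0.068, adjusted p = 0.581) or pericyte and smooth muscle markers (0.094, adjusted p = 0.584) as a covariate. With IgG the difference was 0.14 ± 0.07 (limma adjusted p = 0.192) and in the Alk1 cohort -0.06 ± 0.05 (adjusted p = 0.407).

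The effects on Tgfbr2 differed between deletions. Loss of Smad4 and loss of Eng differed by 0.34 ± 0.08 on the log2 scale (95% interval 0.19 to 0.50, limma adjusted p = 0.00407), a call lost under quantile normalization (0.20, adjusted p = 0.0696). Loss of Smad4 and loss of Alk1 differed by 0.24 ± 0.08 (limma adjusted p = 0.0261), a call lost with glial and neuronal markers as a covariate (0.18, adjusted p = 0.0678) and without Alk1 wild type 3 (0.0508), Smad4 wild type 1 (0.0598) or Smad4 mutant 4 (0.0506).

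Loss of Alk1 and loss of Eng were set against each other as the 2 deletions of the BMP9 receptor complex itself. Age and tamoxifen schedule differed between these cohorts as well and cannot be told apart from the deleted gene. The contrast called 15.8% of 13500 genes and 1 of the 10 receptors, Eng (2.29 ± 0.12 on the log2 scale, limma adjusted p = 1.65e-13), which was the deleted gene of 1 cohort. For the remaining receptors the differences ran from -0.17 for Acvr1 to 0.26 for Bmpr2, with 95% intervals of -0.37 to 0.03 and -0.05 to 0.57. Acvrl1 (-0.20, adjusted p = 0.0393) and Acvr1 (-0.26, adjusted p = 0.0208) were called too after division by library totals, and both after quantile normalization.

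The same Smad4 deletion was measured in untreated and in IgG-treated pups. The contrast of these 2 effects called 1 of 13793 genes (0.00725%), with 927 at an unadjusted p under 0.05, and 0 of the 10 receptors by limma. The widest intervals among the receptors were those of Bmpr1a (-1.49 to 1.07), Acvr2b (-0.79 to 0.01) and Tgfbr3 (-0.76 to 0.34).

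Ratios of receptors within a library do not depend on any factor that scales a whole library. They were chosen after values had been seen and are given without a test. Endoglin over betaglycan (Eng over Tgfbr3) was 11.49 ± 1.91 in Smad4 wild types and 35.2 ± 3.64 in their mutants, and 11.88 ± 0.73 and 28.52 ± 9.62 in the IgG table. It was 12.13 ± 2.14 and 11.41 ± 1.85 in the Alk1 cohort. Bmpr2 over Acvrl1, a type II over a type I receptor for BMP9, was 1.064 ± 0.0965 in Smad4 wild types and 0.8032 ± 0.0515 in mutants, 1.072 ± 0.0294 and 0.7441 ± 0.0605 in the IgG table, and 0.9553 ± 0.0355 and 0.8995 ± 0.042 in the Eng cohort. In the Alk1 cohort, where Acvrl1 is the deleted gene, it was 1.118 ± 0.107 and 1.367 ± 0.201. The LC10-treated Smad4 mutants, from a table of their own, had 28.01 ± 1.57 for the first ratio and 0.6906 ± 0.0587 for the second. Both lay on the side of the Smad4 mutants.

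**Figure D4:**
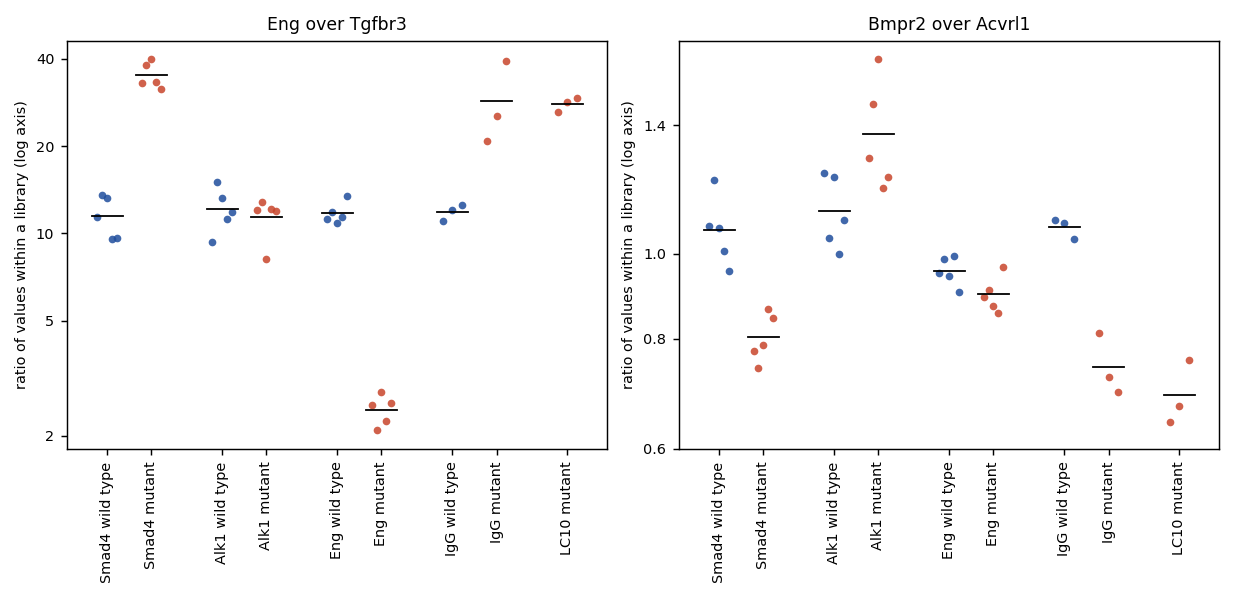
Ratio of values within each library (log axes), Eng over Tgfbr3 on the left and Bmpr2 over Acvrl1 on the right, with group means as black lines. In the Smad4 mutants the left ratio lies between 31.53 and 39.88, against 9.597 to 13.6 in their wild types. The left ratio in the Eng mutants contains the deleted gene Eng, and the right ratio in the Alk1 mutants the deleted gene Acvrl1.

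As a share of the library's summed value, in ppm, Eng in LC10 mutants was 2142 ± 76.1, against 1873 ± 54.4 in IgG mutants and 1606 ± 53.4 in IgG wild types. Tgfbr3 was 76.5 ± 2.40 ppm in LC10 mutants, 70.4 ± 21.4 in IgG mutants and 136 ± 12.8 in IgG wild types. Bmpr2 was 414 ± 22.7, 419 ± 30.4 and 565 ± 28.4 ppm in the same order. LC10 and IgG libraries stand in separate tables, so drug and table cannot be told apart and no test was made.

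Other genes of the pathway were taken from lists. Among 6 further receptors and co-receptors tested, 2 rose and none fell in the Smad4 cohort, 1 rose and 1 fell in the Alk1 and in the Eng cohort, and 2 rose and 1 fell in the IgG table. Cd109, a co-receptor that binds TGF-beta, rose in all 4, by 1.45 ± 0.16 on the log2 scale after loss of Smad4, 1.34 ± 0.08 after loss of Alk1, 0.42 ± 0.12 after loss of Eng and 1.46 ± 0.10 in the IgG table (limma adjusted p = 7.91e-05, 4.92e-07, 0.0247 and 0.00136). Bambi, a receptor decoy without a kinase domain, rose after loss of Smad4 (0.49 ± 0.16, limma adjusted p = 0.0374) and fell after loss of Eng (-0.40 ± 0.05, adjusted p = 0.000256). The list medians, in the order Smad4, Alk1, Eng, IgG here and below, were -0.38, -0.08, -0.16 and -0.10.

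Of the ligands tested, 3 rose and 5 fell of 13 after loss of Smad4, 2 rose and 3 fell of 12 after loss of Alk1, 2 rose and 1 fell of 13 after loss of Eng, and 2 rose and 4 fell of 13 in the IgG table. Tgfb2, whose product depends most on betaglycan for receptor binding, fell in all 4, with log2 fold changes of -1.38 ± 0.07, -0.92 ± 0.14, -0.76 ± 0.08 and -0.80 ± 0.23 (limma adjusted p = 2.91e-07, 0.000469, 4.41e-05 and 0.0485). Tgfb1 rose after loss of Smad4, from 3756 to 6223 (0.72 ± 0.07, limma adjusted p = 3.59e-05). Bmp2 rose after loss of Alk1 (0.66 ± 0.14) and of Eng (1.20 ± 0.17). The ligand medians were -0.62, 0.21, 0.18 and -0.42.

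Of the extracellular antagonists and ligand carriers, 1 rose and 5 fell of 13 in the Smad4 cohort, 4 rose and 4 fell of 12 in the Alk1 cohort, 3 rose and 1 fell of 14 in the Eng cohort, and 1 fell of 12 in the IgG table. Ltbp4, a latent TGF-beta binding protein, fell after loss of Smad4, Alk1 and Eng (-0.43 ± 0.10, -0.42 ± 0.12 and -0.39 ± 0.06, limma adjusted p = 0.00952, 0.0207 and 0.000424). Ltbp1 fell after loss of Smad4 (-0.73 ± 0.08) and Alk1 (-0.88 ± 0.12) and rose after loss of Eng (0.49 ± 0.12). Crim1, a transmembrane protein that binds BMPs, rose in these 3 cohorts, by 0.28 to 0.43. The medians were -0.69, 0.13, -0.05 and -0.28.

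Among 19 SMADs and intracellular regulators, 5 rose and 5 fell after loss of Smad4, Smad4 itself among them, 2 rose and 2 fell after loss of Alk1, 1 rose and 4 fell after loss of Eng, and 5 rose and 3 fell in the IgG table. Smad1, which the BMP type I receptors phosphorylate, rose by 0.94 ± 0.13 after loss of Smad4, 1.57 ± 0.10 after loss of Alk1 and 0.63 ± 0.06 in the IgG table (limma adjusted p = 0.000347, 9.54e-07 and 0.00249). Fkbp1a, whose product binds type I receptors and holds them inactive, rose by 0.59 ± 0.11, 0.57 ± 0.06 and 0.52 ± 0.06 in the same tables. The medians were 0.05, 0.09, -0.05 and 0.05.

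Of 20 target genes of BMP and TGF-beta, 6 rose and 8 fell after loss of Smad4, 6 rose and 9 fell after loss of Alk1, 1 rose and 3 fell after loss of Eng, and 2 rose and 7 fell in the IgG table. Id1, a direct BMP target, fell after loss of Smad4 and of Alk1 (-2.50 ± 0.11 and -1.49 ± 0.09, limma adjusted p = 1.32e-07 and 7.68e-07). Hey1, a Notch and BMP target, fell in all 4 (-0.31, -0.44, -0.77 and -0.39). The medians were -0.32, -0.14, -0.06 and -0.20.

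To describe what varied with a receptor from library to library, log2 values of the 30 libraries without antibody were centred within cohort and genotype. Of 13499 genes compared, Ano6 (Pearson r = 0.862), Parvb (0.841) and Rapgef1 (0.83) were most like Acvrl1. Coro7 (0.743), Gsk3a (0.743) and Vangl1 (0.74) were most like Eng, and Sptbn1 (0.967), Dennd5b (0.93) and Med13 (0.923) most like Bmpr2. The values of a library share its preparation, depth and scaling, so these are descriptions over n = 30 libraries.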

How the data were processed

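RNA of brain endothelial cells was sequenced after TruSeq RNA v2 library preparation, per the labels' protocols. In each of the 5 deposited tables, values are a normalized signal for every gene and library, with mm10 as the build per the submitters' processing notes, although the labels name raw counts. Between 14.4 and 24.9% of a library's values came within 0.05 of whole multiples of its commonest low value. Among low values alone the share was 28.1 to 70%. Because most values were not whole multiples, count tests were not used. Which aligner, counter and normalization were used is not given in the sources used here. Nor is it given whether the authors normalized the tables together or apart.

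From each table's 24972 rows, 26 whose names were repeated or read as dates were dropped. Untreated columns matched samples by group only, so their library numbers follow the file. Another 3 columns match no sample and were not used. log2(value + 2) was tested with limma 3.58.1 (R 4.3.3) and an intensity trend, for genes reaching 20 in 5 or more libraries (3 for IgG), within a table or, between deletions, by interaction contrasts. Fold changes of low genes are understated. Marker covariates are mean log2 marker levels. The pericyte and smooth muscle covariate, code L210 alone and the transcript length were chosen after seeing the data. Gene models are GENCODE M21. The procedure was tested on simulated data.

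The named genes are the 10 receptors, Smad4, up to 4 members of each list with the smallest adjusted p per comparison, members called in all 3 untreated cohorts, and the 3 genes most like Acvrl1, Eng and Bmpr2, and 1 that qualifies is not reported here. Members and lists were chosen with earlier results of these data known.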

Additional observations from a re-analysis of the deposited data

Results flagged for a closer look

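In 60 groups of 5 libraries 3 single values stood apart by Dixon's ratio, where chance gives about 1 in 20. They were Acvr2b at 1416 in Eng wild type 5, the lowest of its group, Acvr2b at 1115 in Smad4 wild type 3, also the lowest, and Eng at 46981 in Alk1 mutant 2, the highest. Eng wild type 5 is the wild type with code L216.

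Genotype effects that differed between deletions by a limma interaction contrast were, on the log2 scale, those on Acvrl1 (0.271), Tgfbr2 (0.244), Eng (0.816) and Tgfbr3 (-0.895) for Smad4 minus Alk1. For Smad4 minus Eng they were Tgfbr2 (0.343), Eng (3.10) and Tgfbr3 (-0.778), and for Alk1 minus Eng it was Eng (2.29). In the 2 contrasts with the Eng cohort, Eng is the deleted gene. In those with the Alk1 cohort, age and tamoxifen schedule differed along with the deleted gene.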

How the results depend on the processing

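With pericyte and smooth muscle markers as a covariate, chosen after seeing the data, 2 were called in place of 4 in the Smad4 cohort and 0 in place of 5 in the IgG table, and the genes called fell to 1581, 1293 and 22 in the Smad4, Alk1 and IgG comparisons (from 4620, 4530 and 2480). With glial and neuronal markers 2251 genes were called in the Smad4 cohort, 811 genes and 3 receptors in the IgG table, and 773 genes (from 1168) for Smad4 minus Eng. The library code as a term gave 7 receptors in the Smad4 cohort, with 6428 genes called in place of 4620. Libraries without a code alone gave 2450 genes in the Smad4 cohort, and 1963 genes and 0 receptors in the Alk1 cohort. Division by totals and quantile normalization each gave 5 receptors in the Alk1 cohort (from 2) and 3 for Alk1 minus Eng (from 1). Over all genes of the Alk1 cohort, totals called 1867 higher and 2678 lower. Quantiles called 2114 higher and 2420 lower, where the main fit called 2386 and 2144. Without the intensity trend 1130 genes and 2 receptors were called in the IgG table, a joint fit called 1632 genes in the Eng cohort (from 3082), and a pseudocount of 10 called 0 genes for untreated minus IgG Smad4. The cause of these shifts was not tested. Pericyte sums did not overlap between genotypes in the Smad4 and IgG tables, so fits with that covariate cannot separate marker level from genotype there. The fits without a code also held fewer libraries, so code and number of libraries cannot be told apart there.

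Leaving out 1 library at a time gave 3358 to 5547 genes and 3 to 6 receptors in the Smad4 cohort, 3835 to 4833 and 2 to 3 in the Alk1 cohort, 2426 to 3142 and 3 to 5 in the Eng cohort, and 471 (without IgG mutant 2) to 3073 and 1 to 4 in the IgG table. It gave 2005 to 2726 genes and 2 (without Smad4 wild type 1) to 7 (without Smad4 mutant 3) receptors for Smad4 minus Alk1, 812 to 1792 and 3 to 5 for Smad4 minus Eng, 1662 to 2752 and 1 for Alk1 minus Eng, and 0 to 1 and 0 for untreated minus IgG Smad4.

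Signs changed only for uncalled effects, and the cause was not tested. In the Smad4 cohort these were Bmpr1a with glial and neuronal (0.022) or pericyte and smooth muscle markers (0.15), and Tgfbr1 by totals (-0.068), by quantiles (-0.062) and without a code (-0.010). In the Alk1 cohort they were Bmpr1a (0.20), Bmpr2 (-0.23) and Acvr2a (-0.13) with pericyte and smooth muscle markers, and Tgfbr1 without a code (0.068). In the Eng cohort Acvrl1 changed sign by totals (0.0081), with pericyte and smooth muscle markers (0.024) and within L210 (0.000614). Among the contrasts, Acvr2a for Smad4 minus Eng did so by totals (-0.047) and with glial and neuronal markers (-0.060), and Tgfbr2 for Alk1 minus Eng by quantiles (-0.027). For untreated minus IgG Smad4, totals, quantiles and glial and neuronal markers gave -0.026, -0.023 and -0.012 for Acvrl1 and -0.011, -0.020 and -0.012 for Tgfbr2, and the last gave 0.26 for Bmpr1a. Ranges over single left-out libraries crossed 0 for Acvr1 (-0.089 to 0.015) and Tgfbr1 (-0.017 to 0.030) in the Smad4 cohort, Tgfbr1 (-0.068 to 0.047) in the Alk1 cohort, Acvrl1 (-0.040 to 0.022) in the Eng cohort, Tgfbr1 for Smad4 minus Alk1 (-0.035 to 0.080), Bmpr1a (-0.18 to 0.025) and Acvr2b (-0.11 to 0.0059) for Alk1 minus Eng, and Bmpr1a (-0.45 to 0.18), Tgfbr2 (-0.019 to 0.10) and Tgfbr3 (-0.45 to 0.000655) for untreated minus IgG Smad4.

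In the IgG table replicate numbers come from the labels, but deviations of same-numbered wild types and mutants correlated at 0.0608, 0.0282 and -0.073. These values show no shared deviation, but with 3 libraries a group they cannot tell whether the numbers pair the libraries. The replicate block called 3 receptors in place of 5. No paired analysis was possible because in the other cohorts the numbers in the column names could not be matched to the replicate numbers of the labels. The fit without coded libraries could not be run for Eng, where all carry a code. The lowest receptor values, 111 and 217 for Bmpr1a in Smad4 mutants 5 and 4, stand in libraries with an inferred 27.6M and 23.7M fragments.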
